A study of Sus scrofa with 6 samples.

Results

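Enteroendocrine cells (EECs) are the hormone-secreting cells of the gut epithelium, and a small set of transcription factors is known for making them. NEUROG3, a basic helix-loop-helix factor, starts the lineage in a few dividing progenitors and is then switched off. NEUROD1, INSM1, NKX2-2, PAX4, PAX6, ISL1, RFX6 and FEV act after it, in the steps that commit a cell and set which hormone it makes, and most of them do the same in the endocrine pancreas. These 9 genes, of 20648 in the deposited count tables, were chosen by symbol, and their RNA was followed in single cells of the piglet ileum.

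The samples were ileal mucosa of male Large White piglets (Sus scrofa) fed maternal milk, with 1 single-cell library at each of 6 ages, days 0 (birth), 1, 3, 7, 14 and 21, and no genetic change or drug in any group. The labels give the ileum as tissue although the design text of the series names the cecum, and they name version 3 of the 10x Genomics 3′ kit where the study's methods name version 2. The study describes 5 piglets per age, from 3 sows, and 1 chip per group, and does not say how the piglets of an age were combined into its library. With 1 library per age, no difference between ages was tested, and intervals cover counting error only.

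Barcodes with at least 1000 unique molecular identifiers (UMIs, 1 per captured RNA molecule) and at least 500 genes were taken as cells, 10836 to 15956 per library from 77391932 to 100348769 UMIs. EECs were cells with at least 10 UMIs of the granins CHGA and CHGB, proteins of the hormone granules. There were 618 on day 0 (5.70% of cells, exact Clopper-Pearson interval 5.27 to 6.16%), 107 on day 1 (0.931%, 0.764 to 1.12%), 40 (0.352%) on the third day and 10 (0.0792%) on the seventh. None was found among 15956 cells on day 14 and 13818 on day 21, which allows shares of up to 0.0188% and 0.0217% (3 cells of the total; the exact upper limits are 0.0231% and 0.0267%). Other epithelial cells, with at least 5 UMIs of EPCAM, KRT8 and VIL1, numbered 2408, 1011, 70 and 248 on days 0, 1, 3 and 7, and 36 and 1 afterwards. B lineage cells made up 26.5% of cells on day 0 and 96.0% on day 21. The comparisons therefore rest on days 0 to 7 and mostly on day 0. Pairs of libraries shared 31 to 68 cell barcodes, each pair more than the 18.1 to 32.4 expected of independent barcodes; the part of this in the results was not tested.

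The label of the cells held against genes that the gate did not use. SCG2, another granin, was detected in 88.3%, 94.4%, 82.5% and 90.0% of EECs on days 0, 1, 3 and 7. The epithelial keratin KRT8 was detected in 98.9%, 97.2%, 87.5% and 100% of them. Some EECs also held RNA of marker genes of other cell types, whose origin was not tested. A list of stromal markers had at least 1 UMI in 38.7% of day-0 EECs, at 2.29 UMIs per 10000 against 0.175 in other epithelial cells, and B lineage markers had one in 14.2%, 14.0%, 40.0% and 80.0% of EECs by age.

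The members lie on 7 chromosomes of the Sscrofa11.1 assembly, with positions as the RefSeq gene table gives them. NEUROG3 is on chromosome 14 (72604203 to 72606362), where its span overlaps that of C14H10orf35, and NEUROD1 and FEV are both on chromosome 15 (87175629 to 87179953 and 121005279 to 121008748). INSM1 and NKX2-2 are both on chromosome 17 (28379529 to 28382554 and 29275656 to 29279572). PAX4 is on chromosome 18 (20675874 to 20680315), PAX6 on chromosome 2 (28971565 to 29001149), ISL1 on chromosome 16 (30962994 to 30974201) and RFX6 on chromosome 1 (44765451 to 44826884).

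NEUROD1, a helix-loop-helix factor that NEUROG3 switches on, was detected in 83.7%, 80.4%, 75.0% and 80.0% of EECs on days 0, 1, 3 and 7. Its level, the summed UMIs per 10000 UMIs of the class, was 5.37 (exact Poisson interval 5.17 to 5.58), 3.85 (3.47 to 4.25), 4.996 (4.21 to 5.89) and 9.77 (7.60 to 12.4). In other epithelial cells the level was 0.0666, 0.0205, 0.157 and 0.0747. The 2 classes did not overlap in any library. The day-7 value rests on 10 cells.

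INSM1, a zinc-finger repressor of endocrine cells, stood at 2.17 (2.04 to 2.30), 2.96 (2.63 to 3.32), 5.52 (4.69 to 6.45) and 3.82 (2.52 to 5.56) in EECs. It stood at 0.0502, 0.0329, 0.288 and 0.207 in other epithelial cells. The zinc-finger factor was thus higher in EECs of each of the 4 libraries, and among EECs its day-3 interval lay above those of days 0 and 1. RFX6, a winged-helix factor, was at 1.21, 1.41, 2.45 and 2.12 in EECs against 0.0237, 0.0114, 0.131 and 0.0172. PAX4, a paired-homeodomain repressor, was at 1.15, 1.37, 2.24 and 1.98 against 0.00881, 0.00762, 0.144 and 0.00575. Both had more than 10 times the level of other epithelial cells in every library, with day-3 EEC intervals (1.91 to 3.09 for RFX6, 1.72 to 2.86 for PAX4) above the day-0 values.

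NKX2-2, a homeodomain factor, was at 0.455, 0.594, 1.15 and 0.849 in EECs and at 0.0321, 0.0176, 0.209 and 0.0287 in other epithelial cells. ISL1, a LIM-homeodomain factor, was at 0.443, 0.272, 0.873 and 0.708 against 0.0455, 0.0114, 0.131 and 0.0920. PAX6, a paired-homeodomain activator of hormone genes, was at 0.353, 0.292, 0.524 and 1.13 against 0.0607, 0.0267, 0 and 0.0862. All 3 were higher in EECs of each library, and each was seen in a minority of EECs on day 0, NKX2-2 in 26.2%, PAX6 in 17.6% and ISL1 in 13.8%. FEV, an ETS factor known from serotonin-making neurons, was at 0.125 (62 UMIs), 0.151 (15), 0.105 (3) and 0.142 (1) in EECs. In other epithelial cells it had 2 UMIs on day 0 and none on days 1, 3 and 7.

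NEUROG3 had another pattern. It was at 0.0222 (11 UMIs), 0.403 (40 UMIs), 0.489 (14 UMIs) and 0.425 (3 UMIs) in EECs, and at 0.0184 (75 UMIs), 0.0491, 1.66 (127 UMIs) and 0 in other epithelial cells. The EEC level was higher on days 1 and 7, lower on day 3, and within counting error on day 0. All 40 UMIs on day 1 came from 1 cell.

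**Figure D1:**
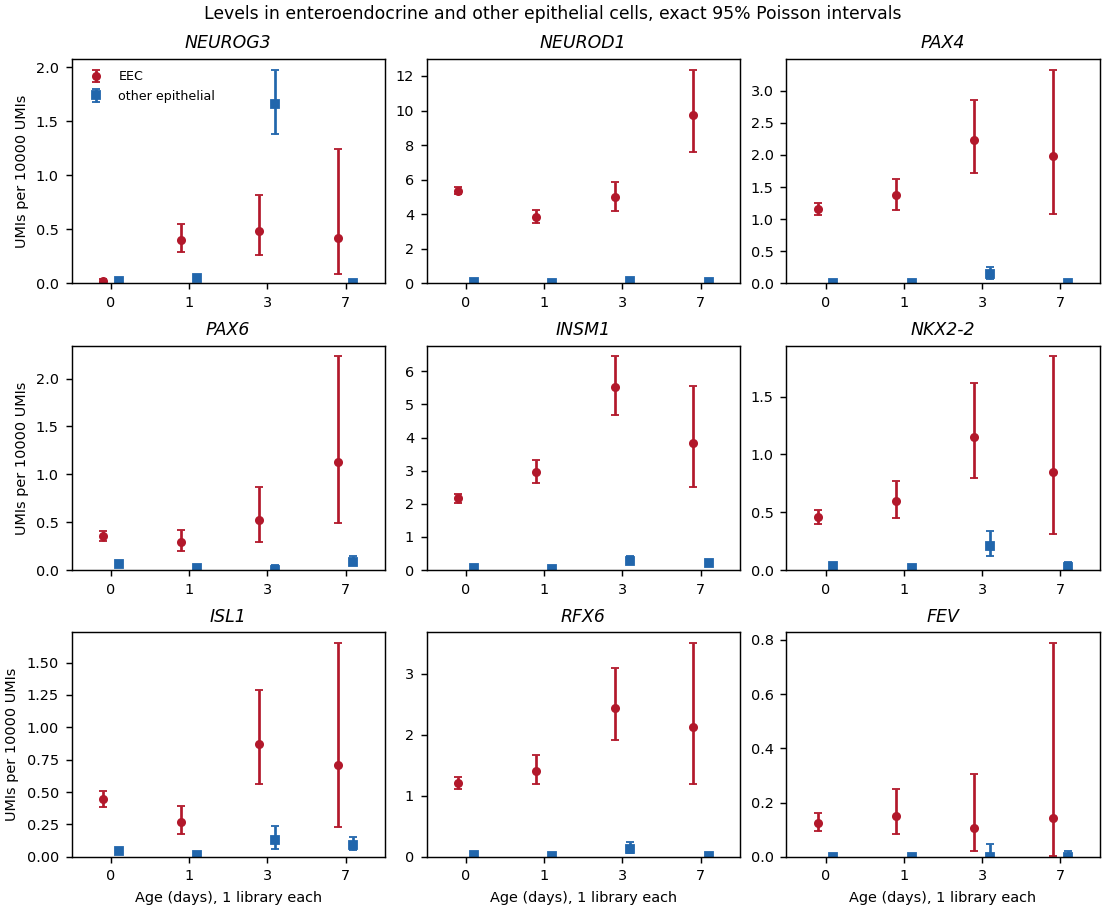
Levels of the 9 members (UMIs per 10000 UMIs, linear axes that differ between panels) in EECs (red circles) and other epithelial cells (blue squares) of the libraries of days 0, 1, 3 and 7, with exact 95% Poisson intervals that cover counting error only. Every member but NEUROG3 lay higher in EECs in each library. NEUROG3 stood at 0.489 in EECs and 1.66 in other epithelial cells on day 3.

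EECs were shallower than other epithelial cells, with a median of 4235 against 12776.5 UMIs on day 0, so cells were also thinned to 1000 UMIs each. NEUROD1 was then detected in 52.6% of day-0 EECs and 1.62% of other epithelial cells, INSM1 in 24.6% and 0.748%, PAX4 in 19.3% and 0.291%, and RFX6 in 18.1% and 0.581%. NKX2-2 was detected in 6.31% and 0.540%, ISL1 in 5.99% and 1.29%, PAX6 in 4.37% and 1.62%, FEV in 2.43% and 0.0415%, and NEUROG3 in 0.162% and 0.125%. At equal depth these shares were higher in EECs. For NEUROG3 the intervals of the classes overlapped, with a UMI left in 1 of 618 EECs and 3 of 2408 other epithelial cells.

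Free RNA was read from barcodes with few UMIs. Day-0 barcodes with 100 UMIs or fewer, mostly empty droplets, held NEUROD1 at 0.329, INSM1 at 0.151, RFX6 at 0.0959, PAX6 at 0.0890, ISL1 at 0.0822, PAX4 at 0.0616 and FEV at 0.0137. The day-0 levels of these 7 in other epithelial cells were below those values, but their UMIs were not spread evenly over the cells, as described further on for cells with hormone RNA. NKX2-2 and NEUROG3 stood above theirs, at 0.0321 against 0.0274 for NKX2-2, which is within counting error (0.00746 to 0.0701), and at 0.0184 against 0.00685 for NEUROG3, also within it (0.000173 to 0.0382). On day 3 the barcodes with few UMIs held NEUROD1 at 0.0156, INSM1 at 0.0311, and PAX4 and RFX6 at 0.00519 each. Unlike on day 0, these were below the 0.157, 0.288, 0.144 and 0.131 of other epithelial cells. The 64 of those day-3 cells with no granin UMI held 0 UMIs of NEUROD1, INSM1 and PAX4 and 1 of RFX6. The rest lay in 3 cells with 1 to 2 granin UMIs and 3 cells with 3 to 9. Day 1 was mixed, with PAX6 at 0.0106 against 0.0267, NEUROD1 at 0.0447 against 0.0205, RFX6 at 0.0191 against 0.0114 and PAX4 at 0.00851 against 0.00762.

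The members were often detected together at the full depth of the cells. The median EEC held 3 of the 9 on day 0 and 4 on days 1, 3 and 7, against 0 in other epithelial cells. On day 0, 4 of 618 EECs (0.647%) held none and 103 (16.7%) held at least 5. After thinning to 1000 UMIs, 78.5%, 75.7%, 72.5% and 100% of EECs held at least 1 member, against 4.86%, 1.58%, 12.9% and 3.23% of other epithelial cells, and 39.6%, 40.2%, 45.0% and 80.0% of EECs held at least 2.

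The members differed in how much of their RNA lay in EECs. On day 0, EECs held 93.9% of the FEV UMIs of all cells, 91.2% of those of PAX4, 86.6% of NEUROD1, 80.6% of INSM1 and 78.8% of RFX6. They held 59.0% for NKX2-2, 47.5% for ISL1, 34.1% for PAX6 and 12.2% for NEUROG3. Other epithelial cells held 83.3% of the NEUROG3 and 48.3% of the PAX6 UMIs. The shares differed between libraries. On day 7, with 10 EECs, they held 75.0% of the NEUROD1 UMIs but 32.9% for INSM1, 35.7% for RFX6 and 7.21% for PAX6, and on day 3 B lineage cells held 76.5% of the PAX6 UMIs.

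The class difference was tested with edgeR's quasi-likelihood test on UMIs summed per library and class over days 0, 1, 3 and 7, with the library as a block. The 4 libraries stand in as replicates although they differ in age, and the p-values measure only the spread between these sums. Of 9467 genes tested, 860 (9.08%) were higher in EECs and 915 (9.67%) lower at a Benjamini-Hochberg adjusted p under 0.05. Among the 9 members 8 were called higher and none lower. The filter on low counts asked for 0.0732 UMIs per 10000 in 4 sums, which no member reached in more than 2 of the 4 sums of other epithelial cells. All members but NEUROG3 reached it in the 4 EEC sums and so passed through the class where they are high, and NEUROG3 reached it in 3 EEC sums and 1 other, so the count is a description. With no filter, all 9 were tested and the same count of 8 was higher, against 1516 of 17257 genes. The log2 fold change was 6.32 ± 0.42 (SE) for NEUROD1 (adjusted p = 2.00e-05, edgeR), 4.97 ± 0.42 for INSM1 (7.33e-05) and 5.70 ± 0.41 for RFX6 (2.99e-05). It was 6.46 ± 0.54 for PAX4 (6.60e-05), 3.77 ± 0.41 for NKX2-2 (3.63e-04), 3.21 ± 0.33 for ISL1 (2.55e-04) and 2.91 ± 0.37 for PAX6 (8.35e-04). FEV reached 7.99 ± 0.55 (2.33e-05), a value that depends on the prior count since other epithelial cells held only 2 of its UMIs.

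NEUROG3 did not pass, at 0.57 ± 0.87 (adjusted p = 0.722, edgeR). Single libraries changed it: without day 3 it was called higher, at 1.89 (adjusted p = 0.0398, edgeR), and without day 1 its sign turned, to -0.70. Among cells with at least 30 granin UMIs it was -1.74 (adjusted p = 0.0360), lower in EECs. ISL1 was the other member whose call moved with that gate, to 1.34 (adjusted p = 0.0914). Without cells that also held immune or stromal UMIs, the 8 members tested, FEV among them, were higher.

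**Figure D2:**
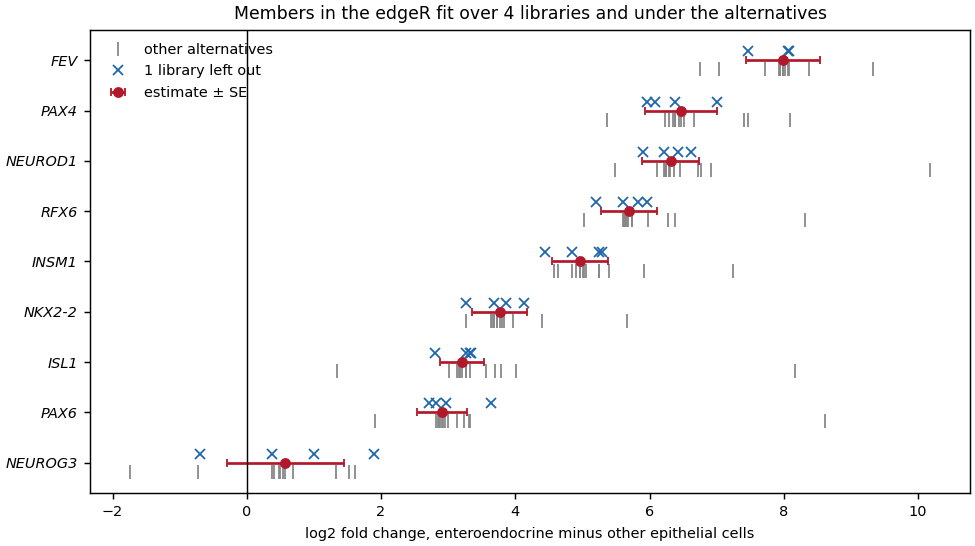
Log2 fold change of each member between EECs and other epithelial cells from the edgeR fit (red points, bars are 1 SE derived from the F statistic), with the same value after leaving out each library (blue crosses) and under the other alternatives (grey ticks). The values of 8 members lay above 0 throughout, from 1.34 for ISL1 upwards, whereas those of NEUROG3 lay between -1.74 and 1.89.

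Other factors of the lineage were read beside the members, with counts over the genes that passed the same filter, again as descriptions. Of 16 further enteroendocrine and islet factors, 13 were tested and 10 were higher in EECs, 0 lower, with a median log2 fold change of 2.52 against -0.04 over all genes tested. LMX1A, a homeodomain factor of serotonin cells, was higher by 7.48 ± 0.28 and ST18, a zinc-finger factor, by 4.18 ± 0.71. FOXA2 and PROX1 did not pass, at 0.86 and 0.53.

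Of 10 factors of the secretory lineage and the Notch pathway, 4 were tested and none was higher. SPDEF, a goblet cell factor, was lower by 2.35 on the log2 scale (log2 fold change -2.35 ± 0.43, adjusted p = 0.00557, edgeR), and SOX4, SOX9 and HES6 did not pass. All 9 tested of 10 granule and processing genes were higher, with a median of 3.97, PCSK1, a prohormone convertase, by 6.89 ± 0.47 among them. Of 13 hormone genes, TPH1 among them, 9 were tested and 6 were higher (SST, PYY, GHRL, SCT, TAC1 and TPH1). CCK and GCG stood at -0.40 and -0.62 and did not pass. All 8 proliferation genes were tested and none was called, with a median of -0.00.

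EECs were then split by dominant hormone. EC cells had at least 3 UMIs of TPH1, the enzyme of serotonin synthesis. Of the rest, LN cells were led by NTS, PYY and GCG, IK cells by CCK and GIP, and D cells by SST. The leading sum had only to exceed the other sums, so 1 UMI was enough. With a leading sum of at least 10 UMIs and 2 times the next, IK cells left the fit. No residual degree of freedom then remained, and so no test. Day 0 held 334 EC, 147 LN, 35 D and 17 IK cells and 85 with none of these. Day 1 held 68 EC, 13 LN, 6 D, 3 IK and 17 others, and day 3 held 26 EC cells, 9 others and 5 in the remaining classes. Classes under 10 cells were left out of the fit, which leaves 7 sums, with D and IK only on day 0. The fit has 1 residual degree of freedom, and the lone D and IK sums are assumed to vary like the other sums. Calls in D and IK cells are therefore descriptions of 1 library. Of 5433 genes tested, 81 (1.49%) were called in D cells, 78 (1.44%; 0.939% higher, 0.497% lower) in IK, 67 (1.23%; 1.09% higher, 0.147% lower) in LN and 157 (2.89%) in EC cells. The members had 2 calls in D, 1 in LN, 3 in EC and 0 in IK cells.

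Among the day-0 classes, ISL1 was highest in D cells. On day 0 it stood at 4.51 in D cells (3.66 to 5.49, 98 UMIs), 0.824 in IK cells (0.488 to 1.30), 0.630 in LN cells (0.500 to 0.783), 0.239 in cells with no class and 0.0516 in EC cells (0.0289 to 0.0851). It was detected in 27 of 35 D cells (77.1%) and 10 of 334 EC cells (2.99%), and after thinning in 48.6% and 1.20%. Intervals of IK and LN overlapped, and D and EC stood apart from both. The EC level was 0.0672 on day 1 and 0 on day 3, and the LN level on day 1 was 1.39. The 6 D cells of day 1 held 1.81 (0.902 to 3.23), an interval that includes the day-1 LN level. The 3 D cells of day 3 held 10.7 (6.68 to 16.1). Both values lie outside the fit.

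In the fit across the 4 classes ISL1 was higher in D cells by 3.99 ± 0.36 on the log2 scale against the mean of the other classes (adjusted p = 1.40e-24, edgeR), where 46 of 5433 genes (0.847%) were higher. ISL1 was lower in EC cells, at -4.91 ± 0.45 (adjusted p = 4.00e-24, edgeR), where 50 genes (0.92%) were lower. This contrast also includes the lone D and IK sums. The EC call held in all 12 alternatives with a test, with adjusted p up to 0.0132. The D value ranged from 3.34 to 4.59 over 12 alternatives. Leaving out day 0 or day 1 left no residual degree of freedom and so no test.

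PAX6 leaned to LN cells. Its day-0 level was 0.801 in LN (0.654 to 0.971), 0.641 in IK (0.350 to 1.08), 0.322 in D (0.129 to 0.663), 0.298 in cells with no class and 0.141 in EC cells (0.101 to 0.191). LN, IK and D did not stand apart in neighbouring pairs, while LN and EC did. Day 1 showed 1.70 in LN and 0.107 in EC cells. In the fit PAX6 was higher in LN by 1.70 ± 0.39 (adjusted p = 0.00201, edgeR, where 1.09% of genes were higher) and lower in EC cells at -2.32 ± 0.46 (adjusted p = 7.02e-05). Of these, the LN call was lost under 3 alternatives and the EC call under 4 of 12, among them DESeq2, with values of 1.90 and -2.51 (adjusted p = 1.00 and 0.263), and the fit with no library block, with 1.80 and -2.23 (0.379 and 0.0977).

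Among the 4 hormone classes, NEUROD1 was highest in EC and lowest in D cells on day 0. It was at 5.85 in EC (5.57 to 6.13), 4.36 in LN (4.01 to 4.74), 2.24 in IK (1.66 to 2.97) and 0.873 in D cells (0.526 to 1.36) on day 0, with no overlap between neighbours in this order. It was detected in 90.7% of EC and 31.4% of D cells, and after thinning in 55.7% and 14.3%. On day 1 it was at 3.86 in EC and 3.25 in LN cells, whose intervals overlapped, and on day 3 at 7.28 in EC cells. In the fit NEUROD1 was lower in D cells at -2.06 ± 0.52 (adjusted p = 0.00823, edgeR, where 0.644% of genes were lower) and higher in EC cells by 1.38 ± 0.34 (0.00271, where 1.97% were higher). The D call was lost in 4 of 12 alternatives with a test and the EC call in 3. The values were -2.04 and 1.33 under DESeq2 (adjusted p = 0.691 and 0.524), -1.92 and 1.33 with no library block (0.624 and 0.239) and -1.98 and 3.23 with cells admitted by peptide hormones (0.992 and 0.119). With peptide sums taking precedence the D value was -1.59 (adjusted p = 0.147, edgeR), and among cells with at least 30 granin UMIs the EC value was -0.04 with no test left.

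The classes also differed in granin content, with day-0 medians of 84 CHGA and CHGB UMIs in EC, 31 in IK, 26 in LN and 19 in D cells; the part of this difference in the member values was not tested. The 85 day-0 cells with no hormone class had the highest NEUROD1, 10.1 (9.01 to 11.2), and a lower median depth, 2845 UMIs. They held LMX1A at 2.48 and TPH1 at 2.95, with at most 2 TPH1 UMIs per cell by construction of the gate. On day 1 the 17 such cells held NEUROD1 at 5.60 (4.30 to 7.18).

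The remaining members passed in no class. INSM1 stood between 1.31 (LN) and 2.58 (EC) on day 0, RFX6 between 0.886 (LN) and 1.43 (D), PAX4 between 0.552 (D) and 1.33 (IK), and NKX2-2 between 0.414 (D) and 0.733 (IK). FEV, with 0.131 in EC, 0.0933 in LN, 0.0916 in IK and 0 UMIs in D cells, was too low to be tested. NEUROG3 had 5 UMIs in 1 IK cell and 6 UMIs in 5 EC cells on day 0, 40 UMIs in 1 IK cell on day 1, and 11 UMIs in 3 EC cells and 3 in 1 IK cell on day 3.

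**Figure D3:**
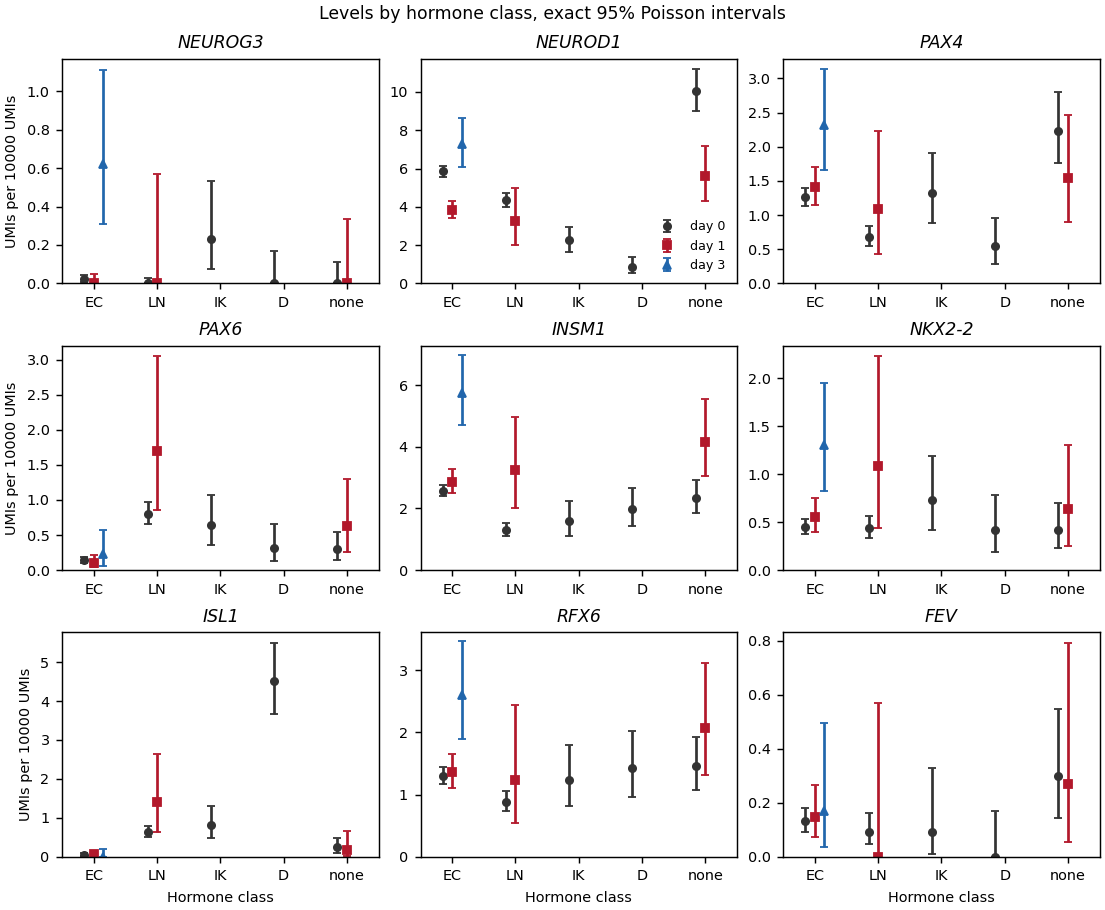
Levels of the members (UMIs per 10000 UMIs, linear axes that differ between panels) by hormone class of EECs in the libraries of days 0 (dark circles), 1 (red squares) and 3 (blue triangles), for classes of at least 10 cells, with exact 95% Poisson intervals. ISL1 stood at 4.51 in day-0 D cells and at 0.0516 in EC cells, PAX6 was highest in LN cells, and NEUROD1 was lower in turn in EC, LN, IK and D cells on day 0.

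Other listed factors also differed between the classes. Of 15 further enteroendocrine and islet factors tested, 2 were called higher in LN cells, where 1.09% of all genes were. In EC cells 1 was called higher and 2 lower, against 1.97% and 0.92% of all genes. Values for D cells describe 1 library. PDX1 and HHEX were higher in D cells by 4.83 and 4.65, and LMX1A was higher in EC cells by 1.58 on the log2 scale. ETV1 was higher in D (1.54) and LN cells (1.16) and lower in EC cells (-2.75). Among hormone genes that did not set the classes, GHRL was higher in D cells by 10.1, TAC1 was higher in EC cells by 5.12 and SCT was higher in LN and IK cells (3.06 and 2.34) and lower in D and EC cells (-3.30 and -2.09). In the 17 IK cells of the single day-0 library, the proliferation genes CDK1, TOP2A, CENPF and HMGB2 were higher by 4.40, 3.90, 1.76 and 1.69. The median over the 7 tested was 1.69. TOP2A and HMGB2 were lower in D cells, also 1 sum, where the median of the 7 was -1.28, and none was called in LN or EC cells.

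The granin count of a cell was used to lay the members out from cells with no granin to cells rich in it, among epithelial cells and EECs pooled over the libraries (3436 cells at 0 UMIs, 236 at 1 to 2, 102 at 3 to 9, 191 at 10 to 29, 382 at 30 to 99 and 202 at 100 and over). The bins are not time points. NEUROD1 was at 0.0233 in the lowest bin, 1.43 at 3 to 9, 2.76 at 10 to 29, 5.99 (5.71 to 6.28) at 30 to 99 and 6.11 (5.74 to 6.49) at 100 and over. INSM1 was at 0.0305, 0.848, 1.31, 2.43 and 3.65 over the same bins, with the last interval (3.37 to 3.95) above the one before it (2.25 to 2.61). The 2 upper bins could not be ordered for NEUROD1, whose thinned level was 12.7 at 30 to 99 and 9.36 above. They overlapped as well for PAX4 (1.42 and 1.52), NKX2-2 (0.479 and 0.607) and FEV (0.144 and 0.187), and stood at 1.33 and 1.73 for RFX6. In these 2 bins, PAX4, RFX6, NEUROD1 and INSM1 lay above their levels at 10 to 29. The bins also differed in TPH1, the gene of the EC gate. It was detected in 3 of 102 cells at 3 to 9 and 65 of 191 at 10 to 29. At 30 to 99 it was detected in 335 of 382 cells, and at 100 and over in 200 of 202. Whether the rise of these 4 members follows granin content or the share of EC cells was not tested.

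PAX6 and ISL1 peaked lower on the granin scale. PAX6 was at 0.719 at 3 to 9 and 0.715 at 10 to 29 granin UMIs and at 0.187 in the top bin, and ISL1 was at 0.759, 1.11 and 0.105. The classes with more of them, LN and D, also had fewer granin UMIs. The 12 day-3 cells of the top bin held 0.898 PAX6 and 1.28 ISL1, against 0.165 and 0.0525 on day 0, but in each case the UMIs came from 1 cell.

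NEUROG3 was at 0.0283 with no granin, 0.115 at 1 to 2, 0.662 at 3 to 9, 0.286 at 10 to 29, 0.0582 at 30 to 99 and 0.0175 at 100 and over. The value at 3 to 9 came from 5 cells, 33 of its 82 UMIs from 1 cell of day 1 and 42 from 2 cells of day 3. On day 0 alone the 82 cells of this bin held 0.0754. Of the 48 UMIs at 10 to 29, 40 came from 1 cell of day 1. Of the 58 UMIs at 1 to 2, 43 came from 1 cell of day 3. On day 0 alone the bins of 10 to 29 and 1 to 2 held 0.0362 and 0.0452.

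**Figure D4:**
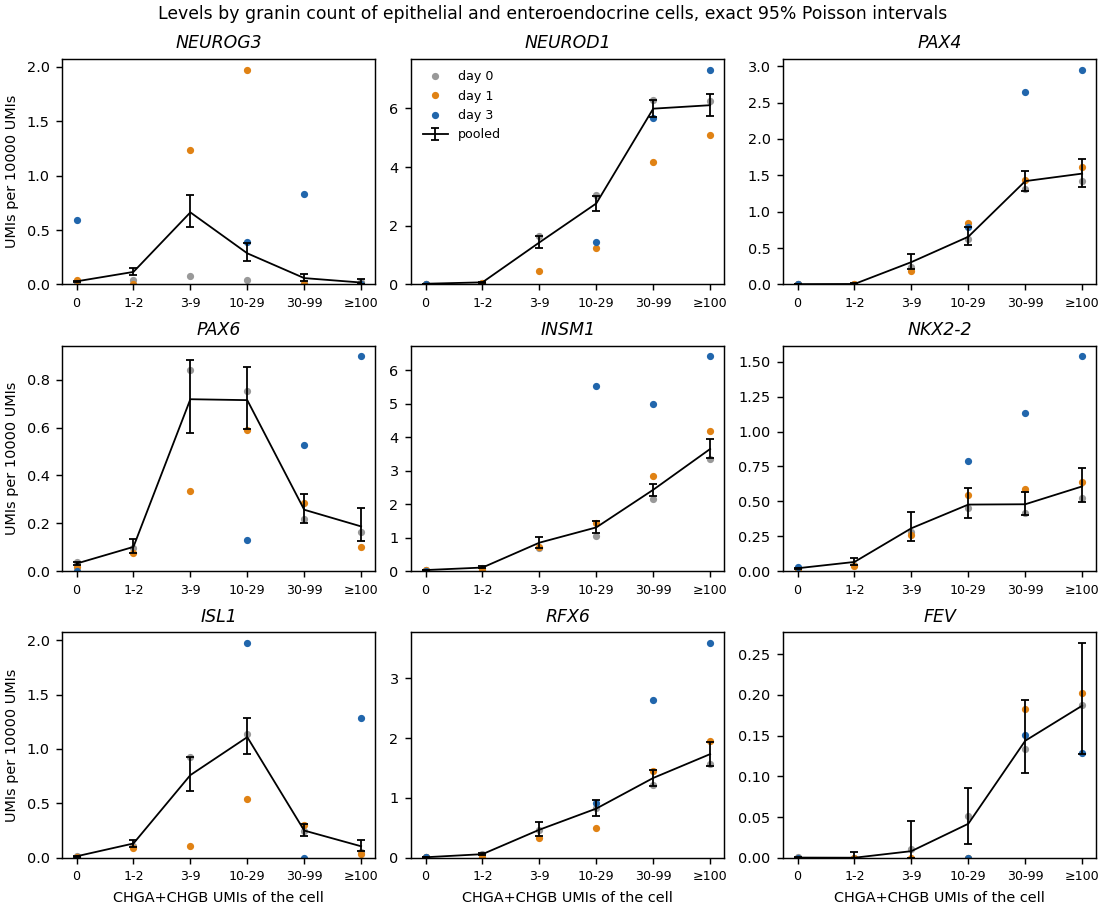
Levels of the members (UMIs per 10000 UMIs, linear axes that differ between panels) by the CHGA and CHGB UMIs of the cell. Black lines are the pooled libraries with exact 95% Poisson intervals, dots are single libraries with at least 10 cells in the bin; NEUROD1 stood at 5.99 and 6.11 in the 2 upper bins, PAX6 and ISL1 were highest at 3 to 29, and the pooled NEUROG3 value at 3 to 9 (0.662) rests on 5 cells.

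NEUROG3 RNA was concentrated in few cells. Of all cells, 22, 7, 17 and 1 had a UMI on days 0, 1, 3 and 7, and the 3 highest cells held 44.4%, 73.4% and 67.5% of its 90, 143 and 154 UMIs on days 0, 1 and 3. Epithelial cells with at least 3 UMIs numbered 9, 6, 8 and 1, or 24 in all, of which 12 had no granin UMI, 7 had 1 to 9 and 5 were EECs by the gate. Among the 24, INSM1 was detected in 20, NKX2-2 in 18, RFX6 in 16 and PAX4 in 13. NEUROD1 was detected in 8, PAX6 and ISL1 in 3 each and FEV in 1. These cells were deep, with a median of 46286 UMIs on day 0. On that day INSM1 and NKX2-2 were each detected in 8 of the 9 and NEUROD1 in 1. Of 1428 other epithelial cells with at least 10000 UMIs and no NEUROG3 (median 18669.5), INSM1 was detected in 29 (2.03%), NKX2-2 in 40 (2.80%) and NEUROD1 in 38 (2.66%). Day 3 differed: of its 4 NEUROG3 cells with at least 10000 UMIs, INSM1, NKX2-2 and NEUROD1 were each detected in 1 and PAX4 in 0, and the cells with 6, 8 and 28 NEUROG3 UMIs held no other member.

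These cells were also set beside genes of the lineage's start. SOX4, a factor of early secretory progenitors, was detected in all 24, HES6 in 21 and DLL1, a Notch ligand, in 13. DLL1 was detected in 0 of the 8 cells of day 3. The SOX4 level was 8.62, 22.0 and 16.9 on days 0, 1 and 3, against 2.90, 3.26 and 6.09 in other epithelial cells. Of the hormone genes, CCK was detected in 13 and TPH1 in 2. The cells were chosen by NEUROG3 and are few, so these are descriptions without a test.

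Some epithelial cells held hormone RNA without passing the granin gate. Those with at least 10 UMIs of SST, of CCK and GIP or of NTS, PYY and GCG, but under 10 granin UMIs, numbered 205 on day 0 and 30 on day 1. On day 0 they held PAX6 at 0.798, detected in 50.7% of cells, NEUROD1 at 0.778, ISL1 at 0.584, INSM1 at 0.522, RFX6 at 0.266, NKX2-2 at 0.230, PAX4 at 0.0492 and FEV at 0.00656. The PAX6 level was close to those of the LN and IK cells (0.801 and 0.641), and those of NEUROD1 and PAX4 were below all EECs (5.37 and 1.15). On day 1 PAX6 stood at 1.01 and NEUROD1 at 0.700. These cells count among other epithelial cells in the comparison above, and on day 0 they held 243 of the 248 PAX6 UMIs, 178 of the 186 of ISL1, 237 of the 272 of NEUROD1 and 159 of the 205 of INSM1 in that class. With granin- or hormone-holding cells left out, a choice made after seeing the data, the fitted log2 fold change was 8.61 for PAX6, 8.17 for ISL1, 10.17 for NEUROD1 and 7.25 for INSM1. Other epithelial cells then held 3 PAX6 and 5 ISL1 UMIs on day 0 and none of either on days 1, 3 and 7, so these sizes depend on the prior count.

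PAX6 was the one member with many UMIs in the last 2 libraries, which held no EEC. Of its 364 UMIs in cells on day 14, 359 (98.6%) lay in B lineage cells, at 0.0416 per 10000, and the level there on day 21 was 0.0297. The other 8 members stood at 0.00323 or less in B lineage cells of both days. Barcodes with 100 UMIs or fewer held PAX6 at 0.0365 (0.0216 to 0.0577) and 0.0454 (0.0235 to 0.0793) on these days. The means over B lineage cells did not lie above these intervals. Whether the RNA of these barcodes came from B lineage cells was not tested. Within the B lineage the PAX6 level was uneven. Dividing cells, with at least 5 UMIs of MKI67, TOP2A and CENPF (a split chosen after seeing the data), held 0.0357 (60 UMIs), 0.0428 (69), 0.0697 (334) and 0.0635 (155) on days 3, 7, 14 and 21. Other B lineage cells held 0.00142, 0.00254, 0.00651 and 0.00774. The day-21 level of dividing cells, 0.0635, lay within the interval of the barcodes with few UMIs of that day. On day 14 PAX5, a related factor of B cells, was at 5.78 and 5.13 in these classes.

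**Figure D5:**
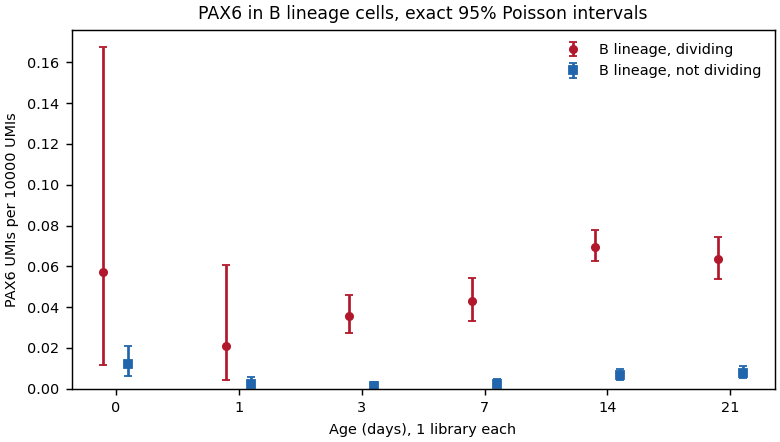
PAX6 level (UMIs per 10000 UMIs, linear axis from 0) in B lineage cells with at least 5 UMIs of MKI67, TOP2A and CENPF (red circles) and in the other B lineage cells (blue squares) of the 6 libraries, with exact 95% Poisson intervals. From day 3 the dividing cells lay above the others in each library, at 0.0697 against 0.00651 on day 14.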

How the data were processed

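The authors deposited UMI counts per gene and barcode for each of the 6 libraries, whole numbers with no normalization, including barcodes of empty droplets. Per the submitters' processing notes they were made with Cell Ranger 3.1.0 and STAR on susScr11 (Sscrofa11.1). Cells were barcodes with at least 1000 UMIs and 500 genes; doublets were not removed, and leaving out cells with at least 2 UMIs of immune or stromal markers was an alternative. EECs had at least 10 UMIs of CHGA and CHGB, and other epithelial cells at least 5 of EPCAM, KRT8 and VIL1. A level is 10000 times summed UMIs over summed total UMIs; 3′ counts are not per length, so levels were not ranked between genes. Intervals are exact at 95%, and a count of 0 was read as at most 3 counts.

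UMIs were summed per library and class of at least 10 cells and tested with edgeR 4.0.16 (R 4.3.3) quasi-likelihood fits, TMM, filterByExpr, the library as a block and Benjamini-Hochberg adjustment over all genes tested. The SE of a log2 fold change was derived from the test, as its absolute value over the square root of the F statistic. On data simulated on 9467 genes for EECs against other epithelial cells, 96 of 100 genes changed 4-fold and 42 of 100 changed 2-fold were recovered and 7 unchanged genes called. DESeq2 1.42.0 was an alternative; numpy 2.4.6, scipy 1.17.1 and pandas 2.3.3 were used for levels. The members and the gene lists were chosen with earlier results of these data known. Named were the members, the genes of the gates and of 5 lists, and for each member with at least 100 UMIs in the class sums its 3 most correlated genes; COL1A2 and DCN were singled out after their values were seen. Some genes of the lists are not reported here. ELAVL4, TRAC and TUBB3 of the marker lists matched no symbol. Strand use in counting is not given in the sources used here, so NEUROG3 and the overlapping C14H10orf35 may share reads. No genome sequence was used here.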

Additional observations from a re-analysis of the deposited data

Results flagged for a closer look

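The direction of NEUROG3 between EECs and other epithelial cells differed between libraries. The log2 ratio of the EEC level to the level of other epithelial cells was 0.27 on day 0, 3.04 on day 1 and -1.76 on day 3. Day 7 gives no ratio, since other epithelial cells held no NEUROG3 UMI there. The day-1 value rests on 1 EEC with 40 UMIs and the day-3 value on 14 UMIs in 4 EECs and 127 UMIs in 6 other epithelial cells. With 1 library per age the difference was not tested.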

How the results depend on the processing

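Over 18 alternatives to the comparison of EECs with other epithelial cells, 7 to 9 members were higher in EECs; the 7 came without day 0 (8 tested) and with at least 30 granin UMIs (9 tested, NEUROG3 lower). The counts of all genes called higher and lower were 278 to 1119 and 103 to 1300 when 1 library was left out, 1516 and 1663 with no filter on low counts, and 319 and 18 with no library block. NEUROG3 turned to -1.74 with at least 30 granin UMIs, to -0.73 with no library block, and ranged from -0.70 to 1.89 when 1 library was left out. In the hormone class fit the 6 member calls became 2 under DESeq2, with no library block, and with cells admitted by a peptide sum of at least 10 UMIs. They became 7 with a gate of 20 granin UMIs per 10000 and 8 without possible doublets, and in both NEUROD1 was also called higher in LN cells. The 383 gene calls over the 4 classes became 593 with a gate of 20 granin UMIs per 10000, 619 without possible doublets, 237 with cells admitted by a peptide sum, 43 under DESeq2 and 18 with no library block. NEUROD1 in LN cells was -0.17 without day 0 and 1.06 without day 3, and it turned to -0.044 in EC cells with at least 30 granin UMIs, with no residual degree of freedom at -0.17 and -0.044 and so no test. The cause of these changes was not tested. The class in which a member was highest on day 0 was the same for 5 of 9 members after thinning to 1000 UMIs. The day-0 share of EECs was 4.71% and 7.80% with a lower and a higher minimum of UMIs and genes per cell, 6.48% and 4.25% with at least 5 and 30 granin UMIs, and 10.3% without possible doublets, where most immune cells leave the denominator. The pooled NEUROG3 level at 3 to 9 granin UMIs was 0.884 as a mean over cells. Leaving cells with granin or hormone UMIs out of other epithelial cells and admitting cells by a peptide sum were chosen after seeing the data. No paired analysis was possible because each group is 1 library; classes of 1 library were paired by the library block.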

Other observations

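For each member with at least 100 UMIs in the 7 sums of library and hormone class, the genes of highest Pearson r of log2 CPM among 6663 were listed as a description; the sums share libraries and cells' depth, and 7 points give high r for many genes. PAX6 was most like GAST, the gastrin gene (r = 0.98), and NKX2-2 most like HES6 (0.97). The others were GRK6 for NEUROD1 (0.99), CD47 for PAX4 (1.00), GOSR1 for INSM1 (0.99), ATG9A for ISL1 (0.95) and TET3 for RFX6 (0.97). The next 2 genes were BRWD1 and DNMT3A for NEUROD1, C4BPB and PSMA3 for PAX4, TIMP2 and LYPD8 for PAX6, APC and DTX3L for INSM1, NUDT16L1 and PDS5B for NKX2-2, GRIA3 and FBXO22 for ISL1, and CDKN1B and HID1 for RFX6, all at r of 0.93 or more.

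The RNA of the stromal marker list in day-0 EECs was mostly COL1A2, at 1.05 UMIs per 10000, and DCN, at 0.764. PDGFRA, of the same list, was at 0.00604 there, and its level in stromal cells is not reported here. The origin of this RNA was not tested.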
